A study of Mus musculus with 5 samples.

Results

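The 9 regulators and adhesion genes that define epithelial identity were examined in the H3K27me3 landscape of embryonic mouse dermal fibroblasts: Cdh1, Epcam, Grhl1, Grhl2, Grhl3, Esrp1, Ovol1, Ovol2 and Trp63. These 9 genes, of 22028 protein-coding genes in the GENCODE vM21 annotation of GRCm38, were listed by name, with no threshold on their H3K27me3 values. They were chosen with earlier results of these data known. A gene was called marked in a library when a peak overlapped the 3000 bp on either side of any of its annotated start sites. 8 of the 9 genes were marked in all 4 libraries and Trp63 was marked in none. Over these 8 genes the peaks were narrower in both E17 libraries than in both E14 libraries, as they also were at 85.0% of all protein-coding genes marked in all 4. None of the 8 genes lost its mark, against 23.8% of all protein-coding genes marked in both E14 libraries, whatever their E14 enrichment.

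The libraries were made from wild-type dermal fibroblasts of mice on the C57BL/6 background, with 2 libraries from embryos at E14 and 2 at E17. The study's methods name a later day for the older stage than the sample labels, and the labels' names are kept here. All 4 libraries came from the same genotype with no treatment, and the study's methods describe dermal cells that were expanded in culture before chromatin was prepared. The comparison of the stages addresses how the repressive landscape of dermal fibroblast progenitors changes as the dermis differentiates. Each library has its own list of broad peaks called by the authors, with 21546 and 16574 peaks in the E14 libraries and 10429 and 7107 peaks in the E17 libraries. Together the peaks covered 52.8 and 32.1 Mb at E14 and 20.0 and 14.3 Mb at E17, a mean decrease of 59.6%. The lists hold no read counts, so the depth behind each peak is unknown, and the part that depth played in the shorter E17 lists was not tested. Replicates are given in the order 1 and 2, and the sources used here do not say whether they came from separate litters, so a p-value measures only the spread between these libraries. With 2 libraries against 2, the exact permutation test over libraries cannot give a two-sided p below 0.33.

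H3K27me3 is deposited by Polycomb repressive complex 2 and is known from genes that are kept silent, above all regulators of other lineages whose start sites lie in CpG-rich DNA. Grainyhead-like, Ovo-like and p63 factors, together with the splicing regulators ESRP1 and ESRP2, establish and hold the epithelial state, and E-cadherin and EpCAM are its surface adhesion molecules. In mesenchymal cells such as fibroblasts these genes are generally off, and Snail and Zeb proteins are repressors of several of them. RNA was not measured in this series, so the silence of the 9 genes in these cultures was not checked here. Markers of the labelled cell type were read at the level of chromatin only, which cannot check the identity of the cells. None of 11 dermal fibroblast markers, among them Col1a1, Pdgfra and Lum, had a peak in any library, while 74.2% of all protein-coding genes were also unmarked in all 4. The same absence was found for 5 of 6 keratinocyte markers and for all 3 immune markers.

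Promoter sequences show the DNA on which the mark did or did not lie. RefSeq start-site windows on GRCm38.p6, from 250 bases before to 50 bases after a start, matched 4 of the 9 genes, with 5 windows. The set of windows used here held no entry for Cdh1, Esrp1, Grhl2, Ovol1 and Trp63. The first window of each of the 4 genes is printed 5′ to 3′ on the strand of the gene. Capitals mark matches to the E-box CACCTG or its reverse complement CAGGTG, the letters that Snail and Zeb proteins recognise, and to ACCGGT, a palindrome at the centre of the grainyhead motif. The motifs share no letters in these matches.
Epcam, chr17:87635729-87636028, plus strand: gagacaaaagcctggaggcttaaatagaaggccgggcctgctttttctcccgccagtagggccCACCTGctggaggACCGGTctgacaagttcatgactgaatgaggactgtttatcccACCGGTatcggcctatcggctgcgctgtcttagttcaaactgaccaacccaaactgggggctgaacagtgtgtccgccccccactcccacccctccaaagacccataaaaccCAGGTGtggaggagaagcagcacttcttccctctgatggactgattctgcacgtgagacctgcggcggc
Grhl3, chr4:135573583-135573882, minus strand: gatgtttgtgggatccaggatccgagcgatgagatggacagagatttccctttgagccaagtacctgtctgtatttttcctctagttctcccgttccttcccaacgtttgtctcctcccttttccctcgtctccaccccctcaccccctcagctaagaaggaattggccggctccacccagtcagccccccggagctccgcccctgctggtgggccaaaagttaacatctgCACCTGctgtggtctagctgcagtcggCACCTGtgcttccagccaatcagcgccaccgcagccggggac
Ovol2, chr2:144331313-144331612, minus strand: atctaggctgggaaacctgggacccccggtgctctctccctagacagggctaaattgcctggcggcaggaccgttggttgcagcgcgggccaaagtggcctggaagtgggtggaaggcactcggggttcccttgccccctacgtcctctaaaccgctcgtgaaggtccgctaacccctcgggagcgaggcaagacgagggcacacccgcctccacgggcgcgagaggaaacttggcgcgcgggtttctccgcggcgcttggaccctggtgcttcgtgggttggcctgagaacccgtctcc
Grhl1, chr12:24572037-24572336, plus strand: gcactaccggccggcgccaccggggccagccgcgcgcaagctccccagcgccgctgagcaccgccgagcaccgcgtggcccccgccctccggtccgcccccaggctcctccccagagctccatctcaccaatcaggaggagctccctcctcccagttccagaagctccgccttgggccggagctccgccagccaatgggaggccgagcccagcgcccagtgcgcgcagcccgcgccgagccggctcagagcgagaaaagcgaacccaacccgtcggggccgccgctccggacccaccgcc
All 300 bases of the Epcam, Grhl3 and Ovol2 windows lay inside a peak in every library, and no base of the Grhl1 window did. The covered windows held 11 CpG dinucleotides in Epcam, 12 in Grhl3 and 25 in Ovol2, and the uncovered window of Grhl1 held 35, against a median of 7 over 32851 mouse promoter windows of that length. A further Grhl1 window, at a downstream start, held 0 CpG and was also uncovered. Epcam held 2 E-boxes and 2 ACCGGT matches, and Grhl3 held 2 E-boxes. Among all promoter windows, 20.2% held an E-box and 2.33% held ACCGGT. Neither the Ovol2 window nor the Grhl1 window held a match, and a match is only a description of the letters.

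Counted over genes, the mark was found at 8 of the 9 regulators in both E14 libraries, where 19.4% of all protein-coding genes were marked in both. The same 8 genes were marked in both E17 libraries, against 12.2% of all protein-coding genes, and so in all 4 libraries, against 12.0%. Loss of the mark, meaning a peak in both E14 libraries and in neither E17 library, was found in 0 of these 8 genes and in 23.8% of the protein-coding genes marked in both E14 libraries. All 8 genes had a mean E14 percentile of fold enrichment of 90 or more, and loss among genes as enriched was not counted. The 9 genes were listed as regulators of another lineage, and no test was made of their count against other genes.

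**Figure D1:**
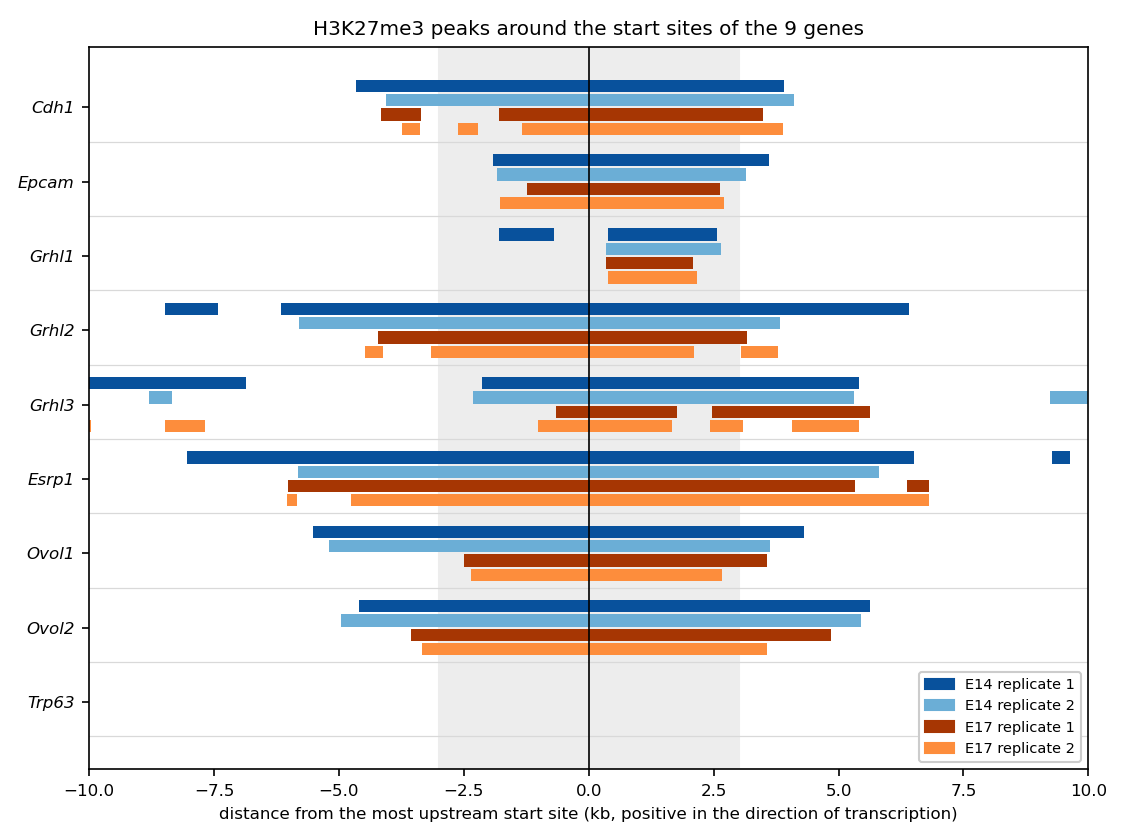
Peaks of each library as bars against the distance in kb from the most upstream start site of each gene, with the grey band 3 kb on either side and peaks cut at 10 kb. In 7 genes a bar crosses the start site in all 4 libraries, Grhl1 has bars only beside its start site, Trp63 has none, and most E17 bars lie within the E14 bars. The E17 domains of Cdh1 and Grhl3 are broken into several bars in both libraries, and that of Grhl2 in the second E17 library.

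Cdh1 and Epcam encode the adhesion molecules of the group. Cdh1, E-cadherin of the adherens junction (chr8:106603351-106670246, plus strand, 16 exons), had peaks touching its window with a summed width of 8566 and 8159 bp at E14 and of 5297 and 5616 bp at E17. The stages did not overlap, and the E17 mean was 34.8% below the E14 mean. The peak over the Cdh1 start site reached 4660 and 4054 bp upstream at E14 but 1799 and 1339 bp at E17, while its other edge, in intron 2, stayed between 3497 and 4104 bp downstream in all libraries. Short separate peaks remained further upstream, of 799 bp in the first E17 library and of 356 and 397 bp in the second, and reached 4151 and 3736 bp from the start site. The upstream part of the Cdh1 domain was thus broken up at E17, with its outermost edge within the reach of the E14 libraries. With the peaks that touch 5000 bp on either side, the decrease in width was 27.8%. Epcam, an adhesion molecule of simple epithelia (chr17:87635979-87651129, plus strand, 10 exons), had peaks of 5527 and 4981 bp at E14 and of 3856 and 4491 bp at E17. These widths did not overlap between stages either, and the decrease of the mean was 20.6%. Both edges of the Epcam peak were nearer to the start site at E17, at 1235 and 1778 bp upstream and 2620 and 2712 bp downstream, against 1925 and 1835 bp and 3601 and 3145 bp at E14.

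The grainyhead-like genes encode transcription factors of the surface epithelium and its barrier, and the 3 genes differed in how the mark was laid. Grhl2 (chr15:37233036-37363569, plus strand, 16 exons) had one of the widest domains, of 12574 and 9625 bp at E14 and of 7379 and 5266 bp at E17. The decrease was 43.0%, and 38.0% when the short peaks of 744 and 374 bp beside the domain in the second E17 library, which begin outside the window, were counted. The domain lay on both sides of the start site in every library and the peak over that site reached 6170 and 5803 bp upstream at E14 and 4216 and 3164 bp at E17. Grhl3 (chr4:135541888-135573630, minus strand, 16 exons) had a single peak around its start site at E14, of 7547 and 7632 bp. At E17 the Grhl3 domain was broken into 2 peaks in the first library and 3 in the second, with summed widths of 5588 and 4686 bp, a decrease of 32.3%. Of these, the peaks that touched the window summed to 5588 and 3344 bp, a decrease of 41.2%. The start site itself stayed inside a peak in both E17 libraries. Grhl1 (chr12:24572283-24617391, plus strand, 16 exons) was the least covered of the marked genes, at 3279 and 2303 bp at E14 and 1736 and 1786 bp at E17, a decrease of 36.9%. Its main peak began 347 to 388 bp downstream of the most upstream start site in all 4 libraries and ended within intron 1. The start site itself lay in no peak, and a second peak upstream of it was called in the first E14 library alone, from −1791 to −688 bp relative to that start. A peak over an annotated start site in all 4 libraries was found in 57.2% of the protein-coding genes marked in all 4, and in 7 of these 8 genes.

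Esrp1, Ovol1 and Ovol2 encode a splicing regulator that selects epithelial exons and zinc-finger repressors that restrain mesenchymal genes. Esrp1 (chr4:11331933-11386783, minus strand, 16 exons) had the widest domain of the 9 genes in every library, of 14540 and 11647 bp at E14 and of 11348 and 11563 bp at E17. It also had the least decrease, 12.5%, and its higher E17 width lay just below its lower E14 width. In its list the Esrp1 domain was exceeded in width by 332 and 278 peaks at E14 and by 185 and 143 peaks at E17. Ovol1 (chr19:5549136-5560646, minus strand, 4 exons) had peaks of 9842 and 8823 bp at E14 and of 6069 and 5025 bp at E17, a decrease of 40.6%. Its upstream edge moved from 5529 and 5202 bp to 2493 and 2365 bp from the start site. Ovol2 (chr2:144305175-144332146, minus strand, 4 exons) had peaks of 10242 and 10405 bp at E14 and of 8415 and 6906 bp at E17, a decrease of 25.8%. The peak covered both sides of the start site and ended in intron 2. The stages did not overlap in either Ovo-like gene. Peaks at Grhl2, Ovol1 and Ovol2 also covered the start sites of the antisense transcripts Gm16136, AC126029.1 and 1700108N11Rik, so the mark cannot be assigned to one of the 2 genes at these places.

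**Figure D2:**
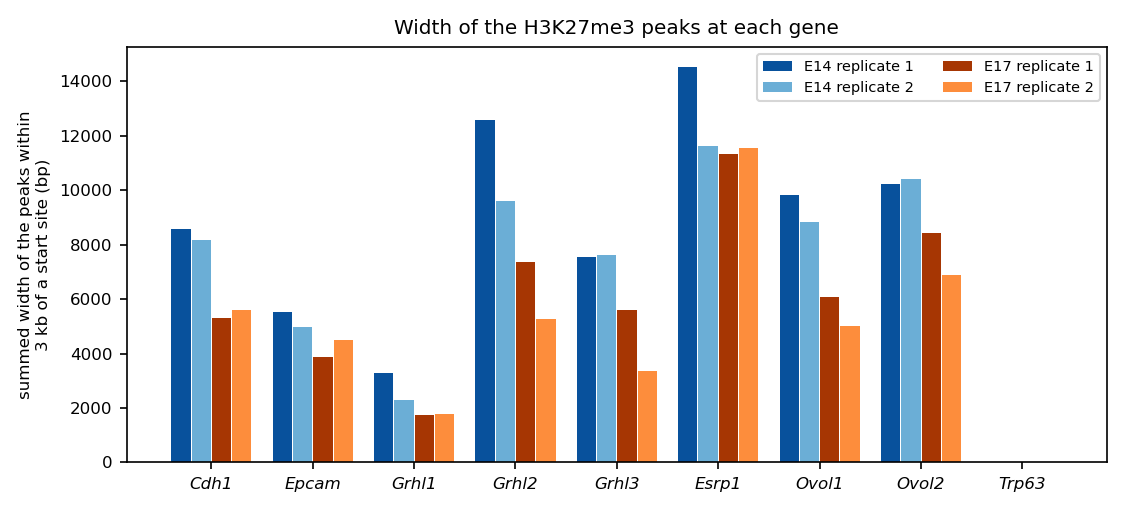
Summed width in bp, on an axis from 0, of the peaks within 3 kb of a start site of each gene, with one bar per library. For each of the 8 marked genes both E17 bars are below both E14 bars, Esrp1 has the tallest bar in every library, and Trp63 is at 0.

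Ordered by their mean width at E14, the genes ran from Esrp1 through Grhl2, Ovol2, Ovol1, Cdh1, Grhl3 and Epcam to Grhl1. Esrp1 was wider than Grhl2 in each library, although the ranges of the 2 E14 libraries overlapped. Grhl2 and Ovol2 changed places between the E14 libraries and were not separated. The ranges of all other neighbours in this order were apart at E14.

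Trp63 encodes p63, the regulator of stratified epithelia (chr16:25683763-25892102, plus strand, 12 exons). It had no peak at any of its start sites and none in its gene body in any library. The nearest peak lay 164957 and 1074822 bp from the gene at E14, and 1791693 and 1792695 bp at E17. Absence here means that no peak passed the authors' threshold, since the lists give no value for a place without a peak.

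Summed over the 9 genes, the peaks that touch the windows measured 72117 and 63575 bp at E14 and 49688 and 43997 bp at E17. The stage means were 67846 ± 6040 bp and 46843 ± 4024 bp (SD, n = 2), a decrease of 31.0% that was larger than the spread between replicates, with the smallest p that the exact permutation test allows (p = 0.33). Peak width was lower in both E17 libraries in 8 of 8 marked genes, with a median decrease of 35.8%. With the peaks that touch 5000 bp on either side, it was again lower in 8 of 8, with a median decrease of 30.1%. Over the 3000 bp windows, 85.0% of the 2645 protein-coding genes marked in all 4 libraries had narrower peaks in both E17 libraries, with a median decrease of 45.6%. A share of 8 in 8 is therefore close to that of marked genes in general. All 8 genes had a mean E14 percentile of fold enrichment of 90 or more. The 1568 marked genes with such a percentile had a median decrease in peak width of 39.3%. A narrower peak in a culture can come from fewer cells that carry the mark or from fewer marked nucleosomes per cell, and these cannot be told apart in bulk chromatin. A change in depth or background can also narrow a called peak, and its part was not tested. The highest fold enrichment in a list was 12.9 and 14.8 at E14 and 6.94 and 6.56 at E17. The median fold enrichment was 3.21 and 3.52 at E14 and 3.36 and 3.74 at E17.

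Within the windows of 3000 bp on either side of the start sites, coverage summed to 47209 and 45253 bp at E14 and to 39145 and 38135 bp at E17. The means were 46231 ± 1383 bp and 38640 ± 714 bp (SD, n = 2). The difference of −7591 bp, or 16.4%, had p = 0.33 by the exact permutation test over libraries. Covered length was below both E14 values in both E17 libraries in 5 of 8 genes, against 77.8% of all genes marked in all 4. The remaining genes were Grhl2, Esrp1 and Ovol2. In these the stretch of window around the most upstream start site was covered from end to end, over 6023 bp in 3 libraries in Grhl2, 6390 bp in all 4 in Esrp1 and 6821 bp in 3 in Ovol2, which leaves no room for a wider peak to count. The separate windows at downstream start sites of Grhl2 and Esrp1 were uncovered. Cdh1 was also covered from end to end over 6793 bp in both E14 libraries, and Ovol1 over 7244 bp in the first. The window decreases of Cdh1 and Ovol1 were 20.3 and 20.0%, against 34.8 and 40.6% by peak width. The median decrease was 20.2% in the 8 genes and 37.8% in all genes marked in all 4. In the 1568 of those with a mean E14 percentile of 90 or more, it was 28.0%. Expressed as a percent of all covered bases in its library, however, the window coverage of the 9 genes was higher at E17 by 0.116 percentage points (exact permutation test, p = 0.33). The whole peaks at these genes made up 0.137 and 0.198% of the covered bases of the E14 lists and 0.248 and 0.307% of those of the E17 lists.

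Gene bodies showed the same order of the stages. Their covered bases lay largely in the same peaks that touch the windows, so this measure is not independent of them. The covered body length summed to means of 37394 ± 4031 bp at E14 and 29031 ± 1558 bp at E17 (SD, n = 2). This was 22.4% less at E17, with p = 0.33 by the exact permutation test over libraries. It was lower in both E17 libraries in 7 of 8 genes, against 70.3% of the genes marked in all 4. The exception was Esrp1, with 6883 and 5818 bp at E14 and 5756 and 6812 bp at E17. The share of the body that was covered ranged widely with gene length, from 37.5 and 31.5% at E14 and 31.1 and 23.1% at E17 in the short gene Ovol1 to 5.65 and 2.93% and 2.42 and 2.18% in Grhl2.

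The E17 peaks lay where the E14 peaks had been. Of 32 pairs of 1 gene in 1 E17 and 1 E14 library, 25 had every base of the E17 peaks inside E14 peaks, and the lowest share was 91.4%, in Esrp1. The 32 pairs reuse the same genes and libraries, so they are not independent. Over whole lists the share of E17 bases inside E14 peaks ranged from 84.8 to 96.1%. That is a share of bases, and full nesting was not counted over all peaks. In the 7 genes with a peak over the most upstream start site, the edges of that peak lay nearer to the site in both E17 libraries in 6 genes upstream and in 6 downstream, but part of this was splitting of the domain. For the outermost edge of all peaks that touch 5000 bp on either side of a start site, the counts were 5 of 7 upstream, with a median difference of 1392 bp between stage means, and 5 of 7 downstream, with 707 bp. Upstream, Cdh1 and Esrp1 overlapped between stages. Downstream, Esrp1 overlapped, and the outermost edge of Grhl3 lay at 5415 and 5311 bp at E14 and at 5635 and 5408 bp at E17. Edges were not counted over all marked genes. Peaks were narrower in both E17 libraries at 85.0% of the protein-coding genes marked in all 4.

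Fold enrichment over the control of the peak call was compared only as a rank within each list, because lists of different length were scored separately. A percentile of 100 stands for the most enriched peak. The best peak of Esrp1 stood at percentiles 99.4 and 98.9 at E14 and 99.4 and 98.2 at E17, and that of Ovol2 at 99.4 and 99.3 and at 98.4 and 99.8. The Ovol2 peak was number 12 of the 7107 peaks in the second E17 library. Grhl2 stood at 97.8 and 96.0 at E14 and 99.3 and 97.5 at E17, Ovol1 at 97.5 and 97.9 and 98.8 and 97.0, and Cdh1 at 98.7 and 97.7 and 98.5 and 96.5. In these 5 genes the percentiles of the stages overlapped.

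The other 3 marked genes stood at lower percentiles in both E17 libraries than in both E14 libraries. The share of all genes marked in all 4 for which this held was not counted. Epcam was at 97.5 and 94.9 at E14 and 90.2 and 83.7 at E17. Grhl3 was at 94.7 and 90.6 and at 78.0 and 82.9, and Grhl1 was at 91.7 and 90.4 and at 84.3 and 67.4. In this order, the stage means differed by −9.30, −12.2 and −15.2 percentile points. A percentile also depends on the length of its list, and the E17 lists were shorter. Counted from the top, Epcam was number 529 and 840 at E14 and 1028 and 1157 at E17. Grhl3 was number 1140 and 1561 and then 2294 and 1218, and Grhl1 1782 and 1595 and then 1636 and 2316, so both overlapped. By that number Cdh1, Grhl2 and Ovol1 stood nearer the top in both E17 libraries. Over the 8 genes the median percentile was 97.7 and 96.8 at E14 and 98.4 and 96.7 at E17 (exact permutation test over libraries on these medians, p = 1). The median of the changes of the single genes was −0.54 points, and that value itself was not tested. All 2645 genes marked in all 4 libraries had medians of 93.3 and 90.7 at E14 and 84.0 and 74.6 at E17, and a median change of −11.5 points. Among the 1568 of these genes that started at a mean E14 percentile of 90 or more, the median change was −6.53 points. No test was made of the difference between the 8 genes and the others.

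**Figure D3:**
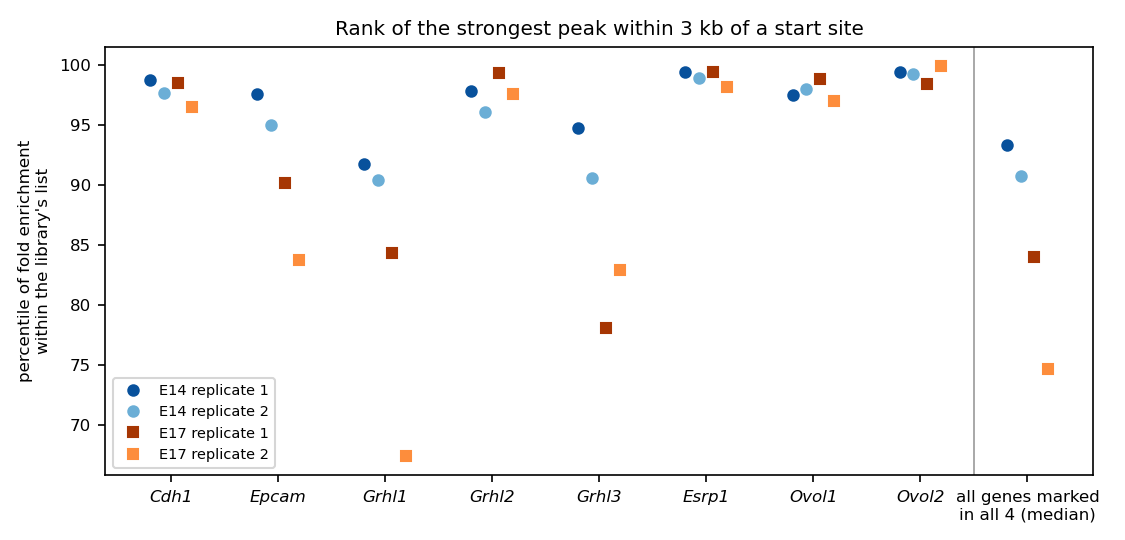
Percentile of fold enrichment of the strongest peak within 3 kb of a start site, with one point per library for each of the 8 marked genes and, at the right, the median of all genes marked in all 4 libraries, on an axis that does not start at 0. Points of Esrp1, Ovol2, Grhl2, Ovol1 and Cdh1 lie above 96 in every library, and the E17 points of Epcam, Grhl3 and Grhl1 lie below their E14 points.

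CpG content was counted in the 1001 bp centred on each annotated start site, a property that the choice of genes did not use. Around the most upstream start, Ovol1 had 107 CpG dinucleotides and Grhl1 had 102, the highest of the 9 genes. Cdh1 had 67, Grhl2 had 61, Esrp1 had 56, Ovol2 had 53, Grhl3 had 40 and Epcam had 31. Trp63 had 8, which placed it at the 17.4th percentile of 21922 protein-coding genes with a median of 41. Genes marked in all 4 libraries had a median of 54 and unmarked genes of 36. When the genes were divided by CpG count into 10 groups of about equal size, 1.06 and 3.57% of genes were marked in all 4 libraries in the 2 poorest groups, and the share lay between 14.1 and 18.6% in the 6 richest. Trp63 falls in the second poorest group.

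The 9 genes have 30 annotated start sites, many of which lie close together and share sequence. Of these, 18 sites in 7 genes lay in a peak in all 4 libraries, with 23 to 107 CpG dinucleotides and a median of 55. The other 12 sites, in 4 genes, lay in a peak in no library, with a median of 11.5. CpG-rich starts without a peak occurred in Grhl1 alone, at its first 2 sites. Without these, the remaining 10 sites had 7 to 31 CpG dinucleotides. The 3 start sites of Trp63 had 8, 8 and 10, and the last of them, at position 25801916 of chromosome 16, is the internal start of the shorter ΔN form.

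**Figure D4:**
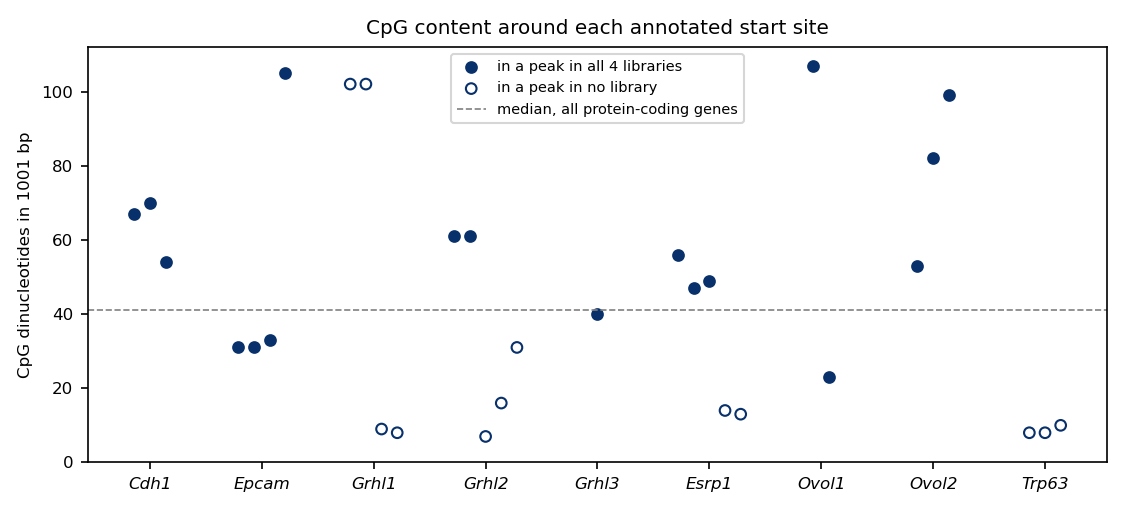
CpG dinucleotides in 1001 bp around each annotated start site of the 9 genes, with filled circles for sites in a peak in all 4 libraries, open circles for sites in a peak in none, and a dashed line at the median of all protein-coding genes, 41. The Trp63 circles are open and lie at 8 to 10, and the only open circles above the line belong to Grhl1.

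Further epithelial genes were read in 3 lists with 53 genes in all. The lists were chosen with earlier results of these data known, and their counts were not tested. In total 31 of them, 58.5%, were marked in all 4 libraries, against 12.0% of all protein-coding genes, and 16 were marked in none, where the share of all genes was 74.2%. Of the 37 genes marked in both E14 libraries 3 were marked in neither E17 library, against 23.8% of all such genes, whatever their E14 enrichment. That count became 0 with lists of equal covered length and 6 without E17 replicate 1. Among the 31 genes, 28 had less covered length in both E17 libraries, against 77.8% of all genes marked in all 4, with a median decrease of 32.5%. The strongest peaks of the 31 genes had median percentiles of 96.0 and 95.6 at E14 and of 88.5 and 86.7 at E17.

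Among 12 other epithelial transcription and splicing regulators, 5 were marked in all 4 libraries and 7 in none. The 3 most covered were Trp73, the p63 relative, with 7029 and 6070 bp of its windows covered at E14 and 4954 and 4943 bp at E17, Tfcp2l1, a grainyhead relative, with 4991 and 3246 bp and 2482 and 2407 bp, and Rbm47, an RNA-binding protein, with 3716 and 1671 bp and 1532 and 2426 bp. Trp73 was thus marked in each library although Trp63 was not. Rbm47 overlapped between the stages. The unmarked genes, named here after their values were seen, were Ovol3, Elf3, Elf5, Ehf, Klf4, Klf5 and Zfp750. The broadly expressed grainyhead relatives Tfcp2 and Ubp1 were likewise unmarked in every library.

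Of 26 adhesion and junction genes, 16 were marked in all 4 libraries and 6 in none. The most covered was Tjp3, a tight junction scaffold, with 10009 and 7767 bp at E14 and 3849 and 2301 bp at E17. The claudin gene Cldn23 had 6985 and 6532 bp and then 4938 and 3443 bp, and Ocln, which encodes occludin, had 6259 bp in both E14 libraries and 5659 and 4173 bp at E17. In these 3 genes the stages did not overlap. Loss at E17 was found in Dsc2, a desmosomal cadherin gene, with 1344 and 650 bp at E14, and in Evpl, which encodes envoplakin, with 1338 and 1224 bp. Of 15 genes for proteases, inhibitors, trafficking and receptors, 10 were marked in all 4 libraries. Myo5b, a motor of vesicle transport, had 7163 and 6946 bp at E14 and 4930 and 5174 bp at E17, Fermt1, an integrin activator, had 6695 and 6340 bp and 4224 and 4378 bp, and Spint1, a protease inhibitor, had 6283 and 5117 bp and 4580 and 2859 bp. Prss8, a membrane protease, lost its peaks of 625 and 1047 bp. The covered lengths of the lost genes at E14 were below those of the 8 marked regulators, of which the least was 2303 bp in Grhl1. Cldn4, Cgn and Epn3, named after their values were seen, were marked in both E14 libraries and in the first E17 library alone.

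**Figure D5:**
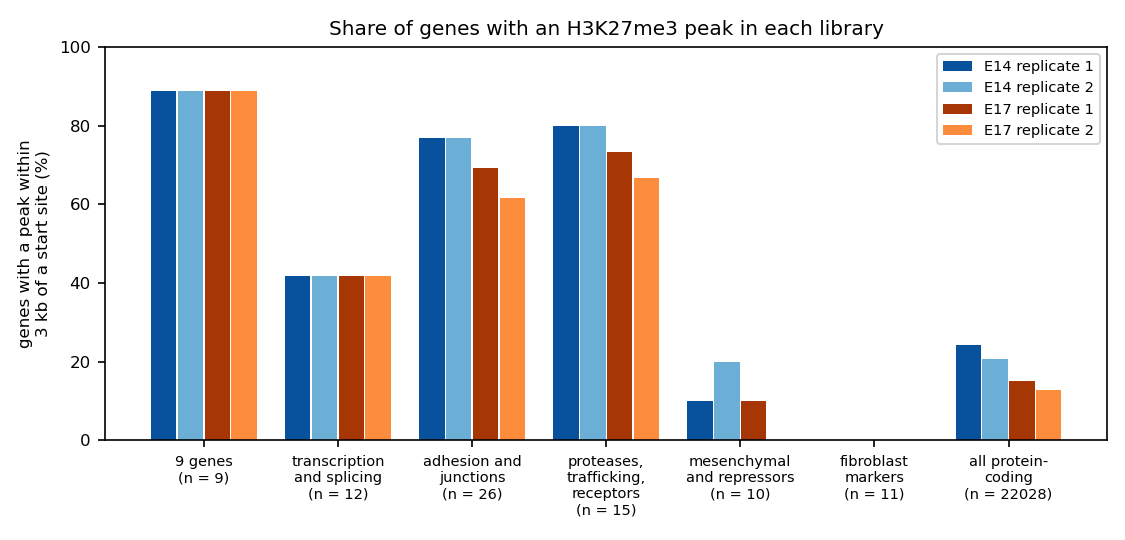
Percent of the genes of each list with a peak within 3 kb of a start site, with one bar per library and the number of genes under each name. The 9 regulators stand at 88.9% in every library, the fibroblast markers at 0, and all protein-coding genes between 12.8 and 24.3%.

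On the mesenchymal side, 8 of 10 genes, which included Zeb1, Zeb2, Twist1, Prrx1 and Vim, had no peak in any library, close to the 74.2% of all protein-coding genes without one. Snai1, which encodes the Snail repressor, had 1477 and 1435 bp covered at E14 and no peak in either E17 library. Cdh2, N-cadherin, had 710 bp covered in the second E14 library and 1815 bp in the first E17 library and no peak in the other two, so it did not follow stage.

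The genes whose window coverage over the 4 libraries came nearest to that of the median member, 6023, 6023, 5297 and 5025 bp, were sought among 21923 other protein-coding genes. They were Hoxc10, a homeobox gene, with a summed difference of 118 bp, Alx4, a homeobox gene of limb and craniofacial mesenchyme, with 157 bp, and Mcidas, a regulator of multiciliated cells, with 201 bp.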

How the data were processed

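H3K27me3 ChIP-seq was analysed from 4 peak lists, 2 at E14 and 2 at E17, and the labelled input library was not analysed here. The submitters' processing notes name Bowtie2 2.3.5.1, SAMtools 1.9, MACS2 2.2.7.1, deepTools 3.5.1 and mm10. The authors called broad peaks in each library without pooling replicates, at a q-value threshold of 0.01, and deposited the fold enrichment of each peak as a ratio and its significance as −log10 q. The control of the peak call and the read filters are not given in the sources used here. The study's methods mention subsampling of reads for some samples, and whether these libraries were included is not stated. The labels and the study's methods also describe the culture medium, chromatin shearing and library kit differently. A change in depth or background changes how far a broad peak extends and whether it is called.

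Positions were compared with GENCODE vM21 on GRCm38, and no peak ran past a chromosome end. Covered bases were counted in the union of windows of 3000 bp on either side of every start site, with an overlap of at least 1 bp, and in gene bodies. Peaks were ranked by fold enrichment within their list. Stages were compared by two-sided exact permutation over libraries, in Python 3.11.15 with numpy 2.4.6 and pandas 2.3.3. The scripts were tested on simulated peaks, of which 100% of the planted values over 2000 genes were recovered. The 9 genes and all lists were chosen with earlier results of these data known. From the lists, genes lost at E17 and the 3 most covered genes at E14 among those marked in all 4 libraries were named, with any marked mesenchymal gene and the 3 genes nearest the median profile. Alternatives were other windows, thresholds, peak sets, ranks and scalings, the replicate block, and leaving out each library.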

Additional observations from a re-analysis of the deposited data

How the results depend on the processing

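No call of a marked regulator turned on the window, the start sites used, the minimum overlap or the minimum peak width. Grhl1 was the exception under other thresholds: with peaks of −log10 q of at least 5, 7 of the 9 genes were marked in both E17 libraries, and with lists of equal covered length, an alternative chosen after seeing the data, 7 in both E14 libraries. Loss was found in 0 of the 9 genes under every alternative.

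The stage difference in window coverage, −7591 bp, was −331 bp with windows of 1000 bp, −15832 bp with windows of 5000 bp and −21004 bp over whole peaks, or −19196 bp over those that touch 5000 bp on either side, the last 2 chosen after seeing the data. As a percent of all covered bases it turned positive, 0.116. Without 1 library it ranged from −8569 to −6613 bp, the body difference from −11214 to −5514 bp and the percentile difference from −1.35 to −0.16. The count of 3 lost genes in the wider epithelial lists became 0 with lists of equal number of peaks and 0 with lists of equal covered length, and ranged from 3 to 6 without 1 library, with 6 without E17 replicate 1. With replicate numbers as a block the differences were −7591 bp (exact sign flip, p = 0.5), −8364 bp (p = 0.5) and −0.84 percentile points (p = 1), and p cannot fall below 0.5 with 2 pairs. Same-numbered libraries deviated together with a correlation of 0.208 over 2645 genes, which with 2 pairs was not taken as pairing. The unknown depth limits every statement on absence and width.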

Other observations

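Markers of other cell types were also read by their H3K27me3. Among 6 keratinocyte markers, Krt1, a keratin of differentiating epidermis, alone was marked, with 5399 and 3657 bp of its windows covered at E14 and 1360 and 803 bp at E17, and the other 5 were marked in no library. All 3 muscle markers were marked at E14. Of these Myod1 had 5619 and 4460 bp and then 3621 and 3122 bp, Des had 4137 and 2541 bp and then 1256 and 1125 bp, and Myf5 had 3359 and 463 bp and no peak at E17. Of 4 endothelial markers Kdr alone was marked in all 4 libraries, and the 3 immune markers were unmarked. These genes, named after their values were seen, are given as values without a test.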
